A study of Mus musculus with 2 samples.

Results

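Deep wound fibroblasts were examined in 2 single-cell RNA libraries of healing skin wounds, as the 1123 cells that a gate on their own transcripts picked out of 24649 kept cells. A cell was kept with at least 500 unique molecular identifiers (UMIs, counted transcripts), at least 300 genes and at most 15% mitochondrial UMIs. A kept cell was a gated fibroblast with at least 20 UMIs of Col1a1 and Col1a2 together, at least 2 of Pdgfra and Lum together, 0 of Ptprc and fewer than 5 of Rgs5. It was a deep wound fibroblast when Clec3b, Angptl1, Cilp and Tnmd together had at least 3 UMIs and more than Crabp1, Prss35 and Grem1 together, and an upper wound fibroblast in the reverse case. The gate held 312 cells of WT_LW and 811 cells of TLR9agonist_LW, out of 801 and 2574 gated fibroblasts. The levels of these genes therefore chose the cells and are given as a description.

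Both libraries came from wild-type mice, by the study's methods C57BL/6J males aged 6 to 8 weeks, with a circular wound of 1.8 cm on the back. WT_LW wounds were given PBS on days 0, 3 and 6, and TLR9agonist_LW wounds were given ODN2395 on the same days. A legend of the study names a control oligonucleotide in place of PBS. ODN2395 is a CpG oligodeoxynucleotide that activates TLR9, the endosomal receptor for unmethylated CpG DNA. The wound centre was collected 2 days after the scab detached, and the cells of several mice were pooled into 1 library per group, so the treatment, the pool of mice and the preparation cannot be told apart. No test between the groups was possible, and every interval below is a 95% interval of counting error only. Intervals of CPM and of gene ratios treat each UMI as independent, and so leave out the spread between cells and between mice.

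Skin fibroblasts differ by depth. Papillary fibroblasts lie under the epidermis, reticular fibroblasts make the thick collagen bundles beneath them, and fibroblasts of the fascia below carry genes such as Pi16, Cd34, Cd55 and Clec3b and move into wounds. Clec3b encodes tetranectin, a plasminogen-binding secreted lectin, Angptl1 an angiopoietin-like secreted protein, Cilp a matrix protein of cartilage and connective tissue that binds TGF-beta, and Tnmd tenomodulin, a membrane protein of tendon and ligament cells. Sfrp2 encodes a secreted modulator of Wnt signalling found in many dermal fibroblasts. The files name these genes ENSMUSG00000025784, ENSMUSG00000033544, ENSMUSG00000042254, ENSMUSG00000031250 and ENSMUSG00000027996.

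The gated cells were deeply sequenced. The 312 cells of WT_LW had 6502777 UMIs, a median per cell of 20860.5, and the 811 cells of TLR9agonist_LW had 14222205 UMIs, a median per cell of 16286. The median number of genes per cell was 4544 and 3571, and the median mitochondrial share was 2.48% and 1.96%. The libraries shared 47 cell barcodes, of which 3 were deep wound fibroblasts in WT_LW and 3 others in TLR9agonist_LW, and leaving the shared barcodes out gave 433 lower genes in place of 451 and the same number of higher genes, 296, in the comparison of the libraries given further on.

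The numbers of cells near each edge of the gate were as follows. The median sum of the 4 deep genes was 27 UMIs in WT_LW and 18 in TLR9agonist_LW, and 252 of 312 and 619 of 811 cells had at least 10. A sum of exactly 3, the lowest that passed, was seen in 8 and 31 cells, and a sum of 2 that exceeded the upper genes left 22 and 28 cells outside. The deep sum exceeded the upper sum by exactly 1 in 4 and 33 cells inside, and fell short by 1 in 6 and 21 cells outside. Ties left out 6 and 29 cells. The Ptprc step removed 431 collagen-positive cells of WT_LW and 635 of TLR9agonist_LW, of which 316 and 407 had only 1 or 2 Ptprc UMIs. With fewer than 3 Ptprc UMIs allowed the gate held 430 and 925 deep cells, and the log2 ratio of their share of kept cells was 0.90 in place of 1.17.

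The label was checked against its 5 markers, with levels in CPM (UMIs of a gene per 1e6 UMIs of the cells summed). Clec3b, Angptl1 and Cilp were far above the upper wound fibroblasts in both libraries, as the rule favours, whereas Tnmd in WT_LW and Sfrp2 in both libraries were not. Tnmd stood at 185 against 135 CPM in deep and upper cells of WT_LW, with a log2 ratio of 0.45, and at 435 against 102 CPM in TLR9agonist_LW, with a log2 ratio of 2.10. Sfrp2, which the rule did not use, stood at 387 against 269 CPM in WT_LW and 393 against 330.0 CPM in TLR9agonist_LW, so it did not separate the 2 kinds of fibroblast at a 2-fold difference. The summed markers of most other cell types were below their level outside the fibroblast gate, and those of cartilage in WT_LW and of skeletal muscle were not. The T cell markers stood at 65.0 and 71.6 CPM against 1621 and 1201 outside, and the macrophage and dendritic markers at 394 and 405 against 10382 and 6328. Keratinocyte markers stood at 629 and 3425 CPM, a level that is taken up further on, and cartilage markers at 58.0 CPM in WT_LW against 28.0 outside. Adipoq and Cidec had 0 UMIs in both libraries.

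Deep wound fibroblasts formed a larger part of all cells in TLR9agonist_LW and a smaller part of its fibroblasts. They were 2.73% of kept cells in WT_LW (exact Clopper-Pearson interval 2.44 to 3.04) and 6.14% in TLR9agonist_LW (5.74 to 6.56), with a log2 ratio of 1.17 (0.98 to 1.36). Gated fibroblasts as a whole were 7.0% and 19.5% of kept cells, and upper wound fibroblasts 2.60% and 10.5%. Among gated fibroblasts the deep share was 39.0% (35.6 to 42.4) in WT_LW and 31.5% (29.7 to 33.3) in TLR9agonist_LW, with a log2 ratio of −0.31 (−0.50 to −0.11), while the upper share was 37.1% and 54.0%. In another setting, cells with any UMI of Epcam, Krt14, Krt5, Pecam1 or Cd3e, or more than 5 of Cd74, were left out of the fibroblasts. Only 52 and 33 deep cells remained, and the direction among kept cells turned, to 0.454% and 0.25% (log2 ratio −0.86). The denominator stayed at all 11443 and 13206 kept cells, so a lower share is built into this setting. Krt14 alone was found in 69.2% and 93.3% of the deep cells and in 52.7% and 88.0% of T cells, or in 33.2% and 60.5% against 43.7% and 79.1% at a fixed depth of 5000 UMIs.

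**Figure D1:**
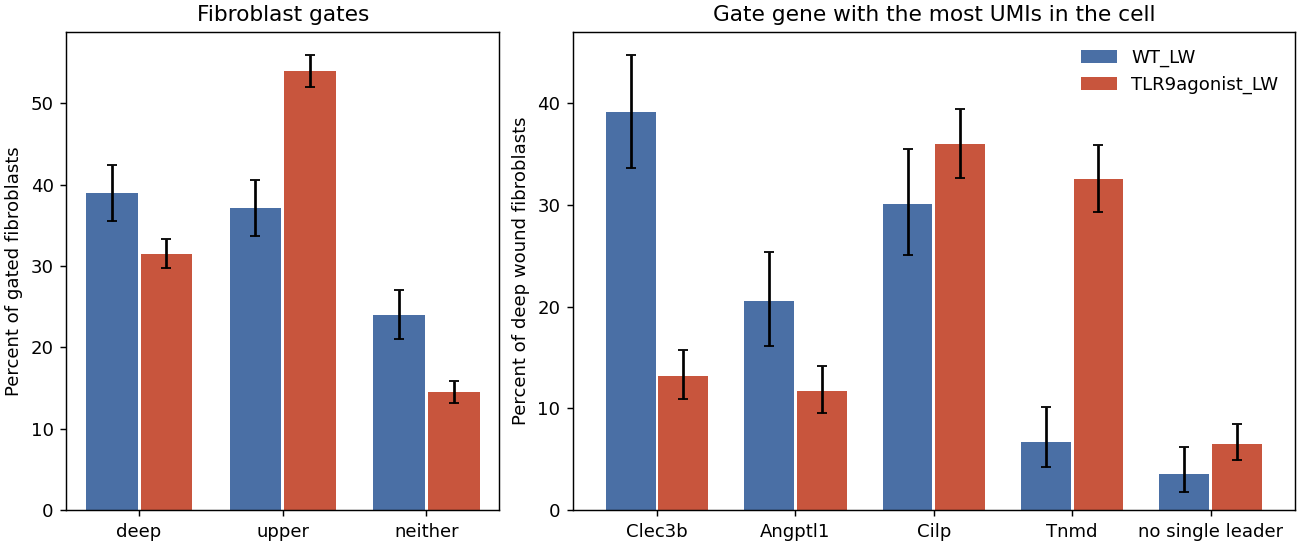
Left, the percent of gated fibroblasts in the deep gate, the upper gate and neither gate; right, the percent of deep wound fibroblasts in which each gate gene had the most UMIs. Bars are the 2 libraries (WT_LW blue, TLR9agonist_LW red) and error bars exact Clopper-Pearson 95% intervals; the Clec3b-led share was 39.1% and 13.2% and the Tnmd-led share 6.73% and 32.6%.

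The make-up of the gate differed between the libraries, from cells led by Clec3b to cells led by Tnmd. Each cell was assigned to the gate gene with the most UMIs in it. Clec3b led in 122 cells of WT_LW, 39.1% (33.7 to 44.8), and in 107 cells of TLR9agonist_LW, 13.2% (10.9 to 15.7). Angptl1 led in 64 and 95 cells, 20.5% and 11.7%. Tnmd led in only 21 cells of WT_LW, 6.73% (4.21 to 10.1), and in 264 cells of TLR9agonist_LW, 32.6% (29.3 to 35.9). Cilp led in 94 and 292 cells, 30.1% and 36.0%, whose intervals overlapped, and 11 and 53 cells had no single leader. These shares come from the genes of the rule and are a description.

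The levels of the gate genes followed the same order. Clec3b stood at 596 CPM in WT_LW and 208 in TLR9agonist_LW (Poisson intervals 577 to 615 and 201 to 216), with a log2 ratio of −1.52. Angptl1 stood at 543 CPM in WT_LW and 252 in TLR9agonist_LW, with a log2 ratio of −1.11. Both were lower in TLR9agonist_LW. Cilp, at 465 CPM in WT_LW and 429.7 in TLR9agonist_LW, differed little (log2 ratio −0.12, −0.18 to −0.05), and Tnmd was the one gate gene that was higher, at 185 CPM in WT_LW and 435 in TLR9agonist_LW (log2 ratio 1.24, 1.15 to 1.33). With the 4 leading-gene groups weighted equally the log2 ratio of Tnmd was 0.05 and that of Clec3b −0.67. Those groups were formed on these same genes, so part of that shift is built in. In upper wound fibroblasts Tnmd was 135 CPM in WT_LW and 102 in TLR9agonist_LW, the opposite order. Sfrp2 stood at 387 CPM in WT_LW and 393 in TLR9agonist_LW, and its interval of the log2 ratio was −0.05 to 0.09.

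Detection was compared after every cell was thinned to 5000 UMIs, which left out 23 and 42 shallower deep cells. Clec3b was then found in 63.7% of WT_LW and 36.7% of TLR9agonist_LW deep cells (77.9% and 54.0% before thinning). Tnmd was found in 34.9% and 65.4% (45.8% and 78.3% before), and Cilp in 64.0% and 67.9% (76.9% and 82.0% before). In the T cells of each library (gated on Cd3d, Cd3e, Cd3g and Ptprc), which should lack these genes, Clec3b was found in 1.97% and 0.730%, Cilp in 2.11% and 2.92%, and Tnmd in 1.38% and 2.92% of the 1372 and 1370 cells that could be thinned. The median depth over all 3464 and 3066 T cells was 4510.5 and 4810 UMIs, and 2092 and 1696 of them were too shallow and left out. The gate genes were seen together in many cells: 137 of the 289 thinned WT_LW cells held both Angptl1 and Cilp, and 341 of 769 in TLR9agonist_LW held both Cilp and Tnmd. All 4 were found in 10.4% and 9.88% of the thinned cells.

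**Figure D2:**
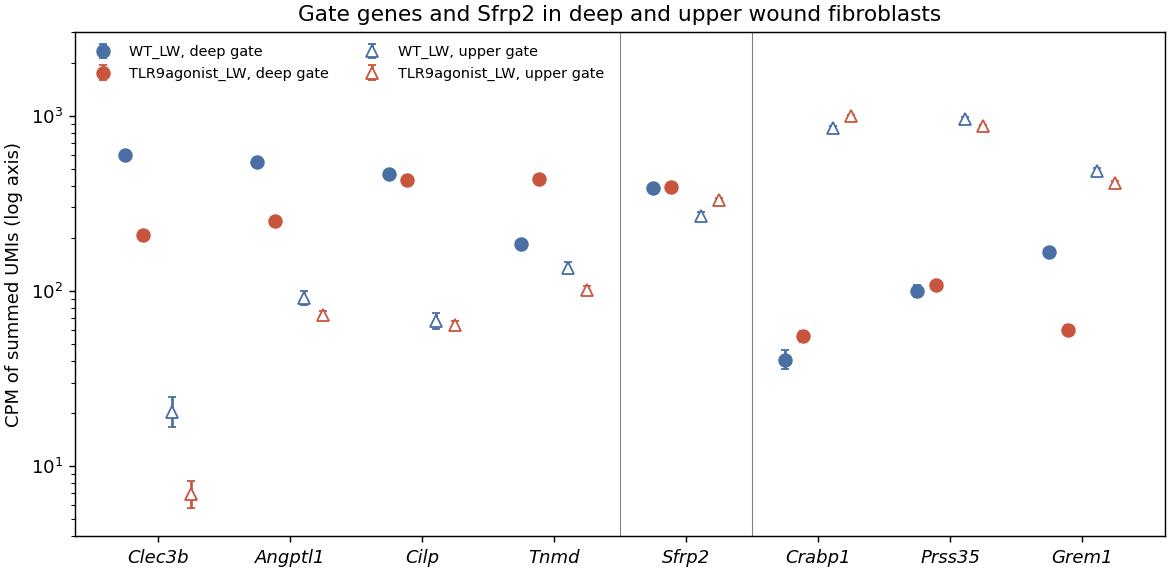
CPM of summed UMIs (log axis) for the deep gate genes, Sfrp2 and the upper gate genes in deep (filled circles) and upper (open triangles) wound fibroblasts of WT_LW (blue) and TLR9agonist_LW (red), with exact Poisson 95% intervals, some smaller than the point. Clec3b lies lower in TLR9agonist_LW (596 and 208 CPM) in deep cells, Tnmd higher (185 and 435 CPM), and Sfrp2 near its upper level in both libraries.

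The next comparison asked what else set deep apart from upper wound fibroblasts in both libraries, among genes the rule did not use. Of 7798 genes with a mean of at least 10 CPM, 111 (1.42%) were at least 2-fold higher in deep than in upper cells in each library, and 84 (1.08%) at least 2-fold lower. Because the cells of each gate were chosen on genes of the same cells, these are descriptions of the gate and carry no test.

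The 10 genes named on the deep side include several for secreted matrix and signalling proteins. Pi16, a marker of fascia and adventitial fibroblasts, stood at 153 against 6.02 CPM in deep and upper cells of WT_LW and 47.7 against 3.99 CPM in TLR9agonist_LW. Igf2, the insulin-like growth factor of growing tissue, stood at 181 against 5.83 CPM and 49.4 against 7.49 CPM, and Nov (Ccn3), a matricellular protein, at 1024 against 121 CPM and 1218 against 135 CPM. Mgp, matrix Gla protein, which blocks calcification, stood at 402 against 22.5 CPM and 461 against 44.8 CPM. The log2 ratios of deep over upper in WT_LW and TLR9agonist_LW were 4.21 and 4.2 for Cygb, a globin of fibroblasts, 3.77 and 5.47 for the Wnt modulator Sfrp4, and 2.88 and 3.97 for fibromodulin, Fmod, a collagen-binding proteoglycan of tendon. The ratios of Lbp, which binds bacterial lipopolysaccharide, were 3.38 and 4.63, of Spon2 4.05 and 3.23 and of the ferritin receptor Scara5 3.46 and 4.38.

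The 10 genes named on the upper side include a tenascin, a metalloproteinase and an integrin. Tnn, tenascin-N, was at 70.7 against 597 CPM in deep and upper cells of WT_LW and 35.4 against 163 CPM in TLR9agonist_LW, Mmp11, stromelysin-3, at 21.1 against 152 CPM and 31.0 against 152 CPM, and Cst6, a cysteine protease inhibitor, at 14.3 against 145 CPM and 23.8 against 129.7 CPM. The log2 ratios were −3.68 and −2.72 for the membrane collagen Col25a1, −3.33 and −2.84 for integrin alpha 4 (Itga4) and −2.16 and −2.41 for the Wnt pathway gene Daam2. Defb6, Sytl2, Entpd1 and Enho completed the 10 genes, with log2 ratios from −2.92 to −1.94.

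Between the libraries, deep wound fibroblasts of TLR9agonist_LW had many acute phase, complement, chemokine and type I interferon response genes higher and many fascia and cell cycle genes lower. Of 7728 genes with a mean of at least 10 CPM, 296 (3.83%) had a log2 ratio of TLR9agonist_LW over WT_LW of at least 1 and 451 (5.84%) of at most −1. The median gene lay at −0.32 (−0.27 in upper wound fibroblasts), and 24.5% of genes lay above 0. Relative to the median gene the split was 480 higher and 163 lower, so the balance of higher and lower genes depends on the scaling. Below, log2 ratios are those of CPM, and the median of each gene list is also given relative to the median gene. Every count of higher and lower list members stands beside the shares over all compared genes, 3.83% and 5.84%. In upper cells those shares were 2.81% and 3.79%.

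Stress genes and keratinocyte transcripts were also higher in TLR9agonist_LW, in these and in other cells. Stress and immediate early genes, which enzymatic dissociation can induce, made up a median 1.27% of UMIs per deep cell in WT_LW and 2.53% in TLR9agonist_LW, 1.25% and 1.88% in upper wound fibroblasts, and 1.32% and 1.69% in cells outside the fibroblast gate. Transcripts of keratinocytes and T cells were present in the deep gate below their level outside it. The summed keratinocyte markers were 629 and 3425 CPM in the gate against 5372 and 15116 CPM outside, with S100a8, a calprotectin subunit, at 11.4 CPM in WT_LW and 779 in TLR9agonist_LW against 267 CPM in WT_LW and 3071 in TLR9agonist_LW outside. After thinning, S100a8 was found in 5.19% and 75.3% of deep cells and in 12.0% and 93.4% of T cells. In TLR9agonist_LW 797 of 811 deep cells had an S100a8 UMI, 59 had at least 10, and 5 cells held 42.2% of its UMIs. How much of its level in the gate is background was not tested. The small proline-rich genes Sprr2f and Sprr2d are members of a family of close copies, and Il17a and Il17f are cytokine genes. All had log2 ratios from 6.02 to 7.67 in the gate but stood higher outside it. In deep and upper cells of TLR9agonist_LW, Il17a stood at 105 and 70.4 CPM and Il17f at 41.3 and 17.8 CPM. Sprr2f stood there at 93.7 and 88.8 CPM and Sprr2d at 169 and 173 CPM. Whether these transcripts are background in the gate was not tested. The highest and lowest genes were therefore taken only from those where the gate held at least 2 times the level outside it in the library where they were higher. The level in the other library was not part of this rule, and passing it does not show a level free of background.

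The 10 genes with the highest ratios under that rule were led by the acute phase genes Saa3 and Serpina3n. Saa3, serum amyloid A3, stood at 11.4 CPM in WT_LW and 314 in TLR9agonist_LW (8.94 to 14.3 and 305 to 323), with a log2 ratio of 4.79 (4.46 to 5.14). Few cells carried it: 19 of 312 and 124 of 811 deep cells had a UMI, and in TLR9agonist_LW 5 cells held 39.7% of its UMIs, in WT_LW 81.1%. Serpina3n, a secreted protease inhibitor, stood at 5.07 CPM in WT_LW and 84.9 in TLR9agonist_LW (log2 ratio 4.06) and was found in 16 and 317 cells, with 5 cells holding 11% of the UMIs of TLR9agonist_LW. C3, the central complement component, stood at 24.3 CPM in WT_LW and 185 in TLR9agonist_LW (log2 ratio 2.93). Thinned detection was 2.42% and 8.84% for Saa3, 2.77% and 23.5% for Serpina3n and 9.0% and 20.5% for C3, against 1.60% and 3.80%, 1.02% and 1.75%, and 5.61% and 2.99% in T cells. The unthinned shares were 6.09% and 15.3%, 5.13% and 39.1%, and 20.8% and 30.5%.

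In upper wound fibroblasts 1 of these 3 genes, Serpina3n, was at least 2-fold higher in TLR9agonist_LW. Saa3 was 153 CPM in WT_LW and 174 in TLR9agonist_LW there, with a log2 ratio of 0.19, C3 was 25.3 CPM in WT_LW and 21.4 in TLR9agonist_LW, with a log2 ratio of −0.24, and Serpina3n 7.77 CPM in WT_LW and 19.1 in TLR9agonist_LW, with a log2 ratio of 1.29. Whether these ratios differ between deep and upper cells could not be tested with 1 library per group.

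Lgr5 and Igfbp2 came next. Lgr5, the R-spondin receptor known from hair follicle stem cells and dermal condensates, stood at 13.1 CPM in WT_LW and 95.8 in TLR9agonist_LW (log2 ratio 2.87, 2.56 to 3.21). It was found in 3.81% (1.92 to 6.71) and 28.0% (24.8 to 31.3) of thinned deep cells and in 0.292% and 0.803% of T cells (7.05% and 44.3% of deep cells before thinning). In WT_LW 5 of the 22 cells with Lgr5 held 57.6% of its UMIs. In upper cells it stood at 19.0 CPM in WT_LW and 69.6 in TLR9agonist_LW (log2 ratio 1.87). Igfbp2, which binds insulin-like growth factors, stood at 254 CPM in WT_LW and 1615 in TLR9agonist_LW (log2 ratio 2.67) and in upper cells at 539 CPM in WT_LW and 2711 in TLR9agonist_LW, the higher of the 2 gates. Igfbp2 was found in 23.2% and 68.5% of thinned deep cells and in 3.43% and 30.4% of T cells, so part of the treated level is shared with cells that should lack it.

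The other 5 were inflammatory, heat shock and matrix genes. Tnfaip2, induced by tumour necrosis factor, stood at 29.5 CPM in WT_LW and 168 in TLR9agonist_LW, and the interferon transcription factor Irf1 at 56.3 CPM in WT_LW and 314 in TLR9agonist_LW. Cxcl14, a chemokine of skin stroma, stood at 35.2 CPM in WT_LW and 176 in TLR9agonist_LW, with 52.0% of its WT_LW UMIs in 5 cells, and the proteoglycan osteomodulin, Omd, at 31.7 CPM in WT_LW and 156 in TLR9agonist_LW. Dnajb1, a heat shock co-chaperone, stood at 262 CPM in WT_LW and 1307 in TLR9agonist_LW in the gate and at 206 CPM in WT_LW and 501 in TLR9agonist_LW outside the fibroblast gate. Their log2 ratios ran from 2.30 for Omd to 2.51 for Tnfaip2, and all 5 were also higher in TLR9agonist_LW in upper cells, with log2 ratios from 1.03 to 2.06.

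The 10 lowest genes included a Wnt ligand, a hormone-related peptide and a transcription factor. Tppp3, a tubulin-binding protein that marks progenitor cells of tendon sheath, stood at 378 CPM in WT_LW and 46.9 in TLR9agonist_LW (363 to 393 and 43.4 to 50.6), with a log2 ratio of −3.01. Enpp1, which makes pyrophosphate, a mineralization inhibitor, stood at 44.4 CPM in WT_LW and 4.43 in TLR9agonist_LW (log2 ratio −3.33), with 5 cells holding 52.4% of its 63 UMIs in TLR9agonist_LW. Wnt2, a Wnt ligand, stood at 64.9 CPM in WT_LW and 11.1 in TLR9agonist_LW (log2 ratio −2.55) and Pthlh, parathyroid hormone-related protein, at 70.9 CPM in WT_LW and 10.5 in TLR9agonist_LW (log2 ratio −2.75). Scara5 stood at 40.8 CPM in WT_LW and 6.82 in TLR9agonist_LW (log2 ratio −2.58) and the BMP-responsive gene Tmem100 at 66.7 CPM in WT_LW and 7.10 in TLR9agonist_LW (log2 ratio −3.23). Adgrg2, Stxbp6, the homeobox gene Barx2 and Islr2 had log2 ratios of −3.21, −3.20, −3.03 and −2.78. All 10 were also lower in TLR9agonist_LW in upper cells, with log2 ratios from −3.49 to −1.61. Outside the fibroblast gate each of them but Pthlh was lower too, with Tppp3 at 134 CPM in WT_LW and 41.6 in TLR9agonist_LW. Pthlh stood there at 5.85 CPM in WT_LW and 6.48 in TLR9agonist_LW. Tppp3 was found in 11.9% and 2.99% of thinned T cells. All 20 genes kept their directions in each of the 15 alternative settings that could give a value, and the ratio closest to 0 was 1.14, for Cxcl14 with cells holding markers of other types left out. The genes were picked for extreme ratios in these same libraries, and the settings reuse the same cells, so kept directions are no test of them.

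**Figure D3:**
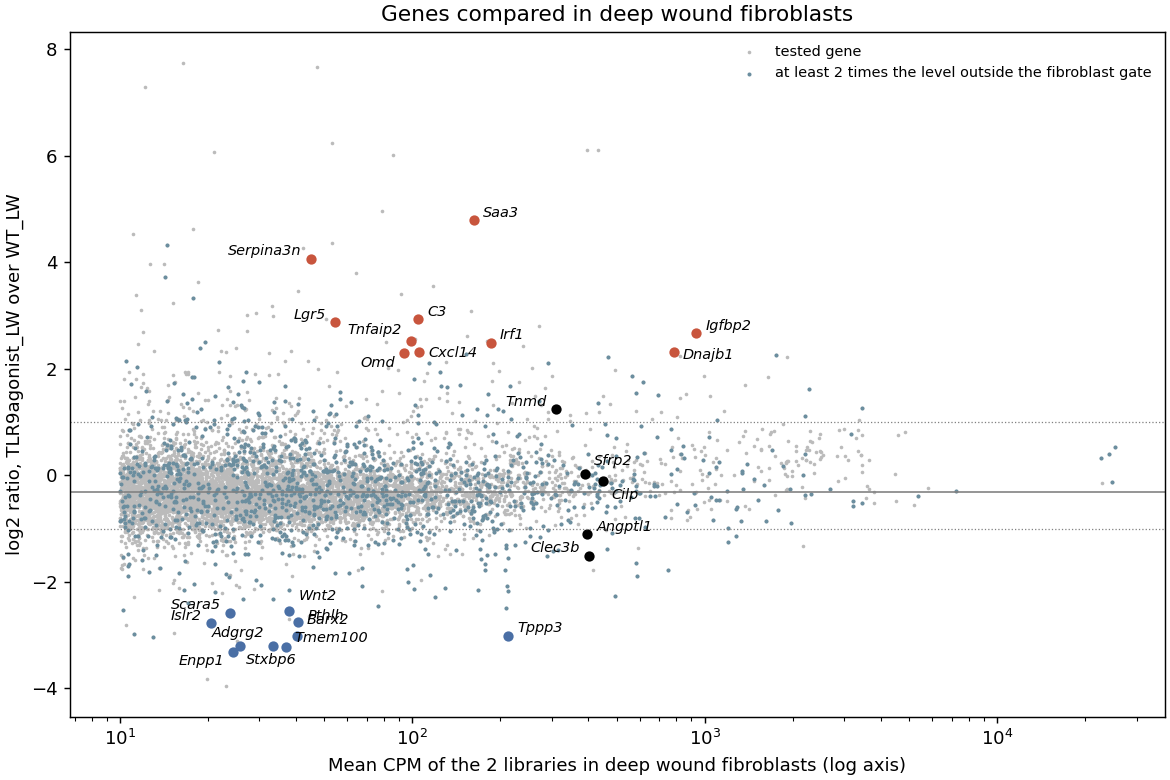
Each point is 1 of the 7728 compared genes, with the mean CPM of the libraries on a log axis and the log2 ratio of TLR9agonist_LW over WT_LW. Named are the 10 highest (red), the 10 lowest (blue) and the deep gate genes with Sfrp2 (black); the solid line is the median gene at −0.32 and the dotted lines are log2 ratios of −1 and 1. Unnamed points above a ratio of 4 are genes that failed the naming rule, such as S100a8.

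The higher genes were also higher within cells led by each gate gene, while Wnt2 and Scara5 among the lower genes were found mostly in Clec3b-led cells. Tppp3 was lower in TLR9agonist_LW within Clec3b-led cells (600.3 and 181 CPM) and within Tnmd-led cells (126 and 15.1 CPM). Igfbp2, C3, Irf1, Tnfaip2, Dnajb1, Cxcl14, Omd and Saa3 were higher in TLR9agonist_LW within Clec3b-led, Angptl1-led, Cilp-led and Tnmd-led cells alike. C3 stood at 29.96 and 419 CPM in Clec3b-led cells, 14.2 and 160 CPM in Angptl1-led cells, 29.0 and 158 CPM in Cilp-led cells and 17.7 and 113 CPM in Tnmd-led cells. Saa3 reached 621 CPM in the Clec3b-led cells of TLR9agonist_LW, its highest level, and 46.8 CPM in the Angptl1-led cells, its lowest. Lgr5 had 0 UMIs in the Clec3b-led cells of WT_LW and 24.3 CPM in those of TLR9agonist_LW, and stood at 37.9 and 128 CPM in Tnmd-led cells. Wnt2 and Scara5 were mostly in Clec3b-led cells, where Wnt2 stood at 143 and 50.1 CPM and Scara5 at 94.5 and 28.1 CPM, and at 7.59 and 2.35 CPM for Wnt2 in Tnmd-led cells. With the 4 groups weighted equally, 255 genes were higher and 291 lower in place of 296 and 451, and the log2 ratio of Wnt2 was −1.45, of Scara5 −1.60 and of Clec3b −0.67. The Tnmd-led group of WT_LW rests on 21 cells.

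**Figure D4:**
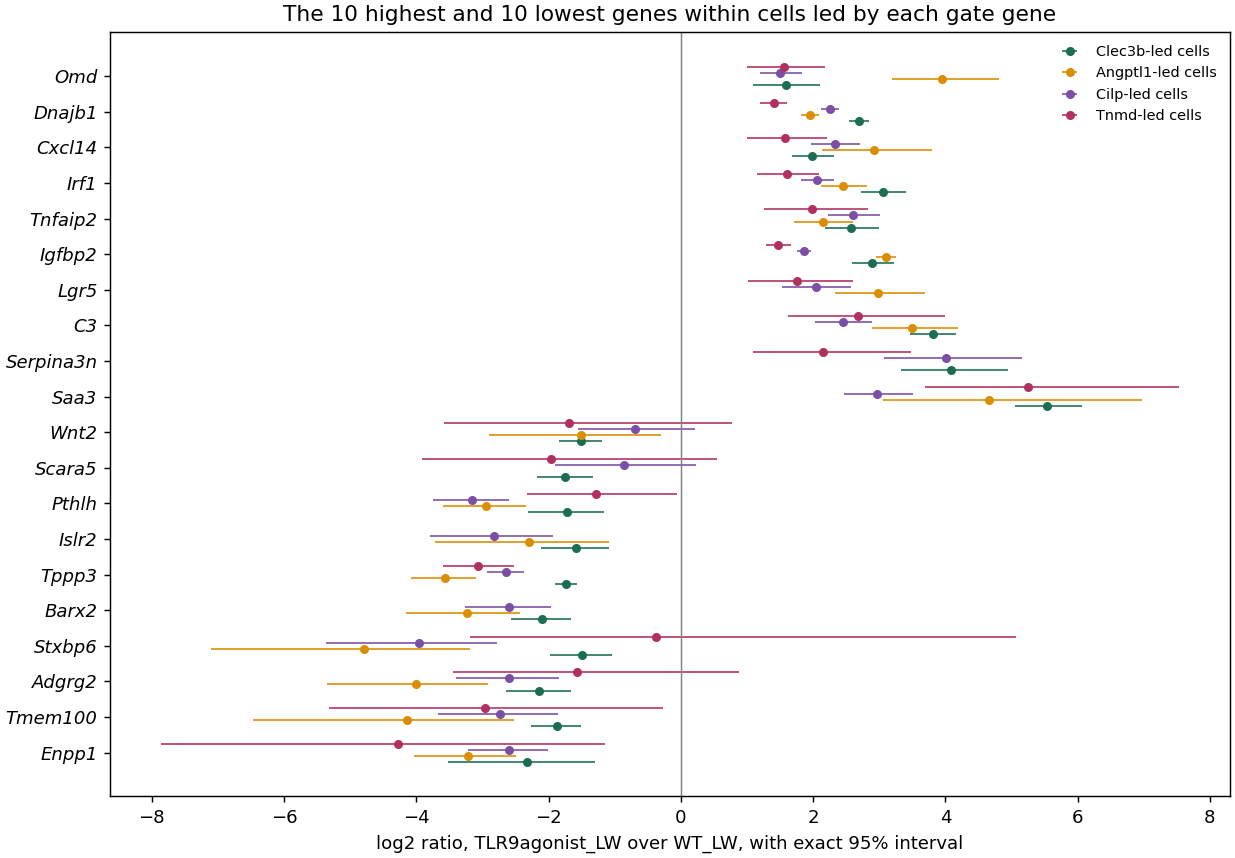
log2 ratios of TLR9agonist_LW over WT_LW, with exact 95% intervals of counting error, for the 10 highest and 10 lowest genes within cells led by Clec3b (green), Angptl1 (orange), Cilp (purple) or Tnmd (crimson). Points are left out where a library had 0 UMIs; the upper 10 genes lie right of 0 and the lower 10 left of 0 in every group drawn, with wide intervals in the Tnmd-led cells.

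Cells led by Tnmd and by Clec3b shared some differences in both libraries, with 21 Tnmd-led cells in WT_LW. Of 2527 genes with a mean of at least 50 CPM, 32 (1.27%) were at least 2-fold higher in Tnmd-led than in Clec3b-led cells in each library and 69 (2.73%) at least 2-fold lower. Tnmd-led cells had more of the contractile genes Tagln (329 against 64.5 CPM in WT_LW and 381 against 68.2 CPM in TLR9agonist_LW) and Mylk, more Igfbp2 (607 against 37.3 CPM in WT_LW and 1686 against 277 CPM in TLR9agonist_LW) and more Fmod (189.7 against 25.3 CPM in WT_LW and 400.0 against 97.8 CPM in TLR9agonist_LW). Clec3b-led cells had more of the matrix genes Tnxb (Tnmd-led against Clec3b-led, 45.5 against 601 CPM in WT_LW and 28.9 against 251 CPM in TLR9agonist_LW) and Emilin2, more Wnt2 and Sfrp4, and more Tppp3 (126 against 600.3 CPM in WT_LW and 15.1 against 181 CPM in TLR9agonist_LW). The leading gene was chosen in the same cells, so these values describe the groups.

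Over the gate as a whole, genes of deep and fascia fibroblasts were lower as a group in TLR9agonist_LW. Of the list's 18 members, all compared, 0 were higher and 9 lower, with a median log2 ratio of −1.003 (−0.69 relative to the median gene), against 3.83% and 5.84% of all compared genes. Thbs4, a thrombospondin of tendon and muscle attachments, stood at 356 CPM in WT_LW and 63.6 in TLR9agonist_LW, and the imprinted gene Mest at 342 CPM in WT_LW and 80.6 in TLR9agonist_LW. Pi16 stood at 153 CPM in WT_LW and 47.7 in TLR9agonist_LW, and Mfap5, a microfibril protein and the most abundant member, at 1599.8 CPM in WT_LW and 808 in TLR9agonist_LW. The other lower genes were Cd55, Cd34, Dpp4, Sema3c, Dlk1 and Ly6c1, with log2 ratios from −1.74 to −1.02. Nov and Procr, the protein C receptor, were at the other end, with log2 ratios of 0.25 and 0.89, though Procr stood higher outside the gate. With the leading-gene groups weighted equally the median was −0.46. It was −0.75 in Clec3b-led, −0.02 in Angptl1-led, −0.19 in Cilp-led and −0.26 in Tnmd-led cells. In upper cells 0 of 17 members were higher and 3 lower, where 2.81% and 3.79% of all compared genes were.

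Tendon genes differed in both directions. Of 10 compared members, 2 were higher, the gate gene Tnmd, whose UMIs chose the cells, and Fmod (116 CPM in WT_LW and 275 in TLR9agonist_LW), and 3 lower, among them Scx, the tendon transcription factor (19.8 CPM in WT_LW and 2.53 in TLR9agonist_LW, log2 ratio −2.97) and Thbs4. Scx was found in 32 cells of WT_LW, of which 5 held 56.6% of its UMIs. The median was −0.21, or 0.11 relative to the median gene, a change of sign. Egr1, the most abundant member and also a stress gene, stood at 1415 CPM in WT_LW and 1974 in TLR9agonist_LW.

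Papillary and dermal papilla genes were mostly low in the gate, and 6 of 13 and 8 of 17 members fell below 10 CPM. Of 7 papillary genes compared, 4 were higher and 0 lower, with a median of 1.07 (1.38 relative to the median gene). Prdm1, which marks papillary progenitors, stood at 11.8 CPM in WT_LW and 35.6 in TLR9agonist_LW, and Fabp5, a fatty acid binding protein of keratinocytes too, at 441 CPM in WT_LW and 1202 in TLR9agonist_LW in the gate but 2542 CPM in WT_LW and 5991 in TLR9agonist_LW outside the fibroblast gate, with 55.6% of its WT_LW UMIs in 5 cells. Sdc1 and Inhba were lowest (−0.53 and −0.33). This median turned to between −0.21 and −0.059 under 3 other settings. Of 9 dermal papilla genes, 2 were higher, Lgr5 and Bmp4 (10.5 CPM in WT_LW and 21.4 in TLR9agonist_LW), and 0 lower. Vcan, versican, stood at 757 CPM in WT_LW and 433 in TLR9agonist_LW and Smad3 had a log2 ratio of −0.22, with a list median of 0.06 (0.37 relative to the median gene).

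Collagen genes differed by family member. Of the 7 fibril-forming collagens, 0 were higher and 1 lower, with a median of −0.13 (0.19 relative to the median gene). Col1a1 and Col1a2, which the gate used, stood at 20620.0 CPM in WT_LW and 29924 in TLR9agonist_LW and 20886 CPM in WT_LW and 27432 in TLR9agonist_LW. Col5a3, a minor chain of type V collagen, was the lower one, at 928 CPM in WT_LW and 250.2 in TLR9agonist_LW, and was also lower in upper cells (log2 ratio −2.07), while Col5a2 had a log2 ratio of −0.35. Of 14 other collagens, 1 was higher and 2 lower, with a median of −0.46 (−0.15 relative to the median gene). Col8a1, a short-chain collagen of vessels and activated cells, was the higher one at 297 CPM in WT_LW and 868 in TLR9agonist_LW, followed by Col8a2 (0.55). Col6a6 (27.1 CPM in WT_LW and 6.05 in TLR9agonist_LW) and Col18a1 (153 CPM in WT_LW and 68.8 in TLR9agonist_LW) were lower, and Col6a3, the most abundant, stood at 2088 CPM in WT_LW and 1145 in TLR9agonist_LW.

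Small leucine-rich proteoglycans, which bind collagen fibrils and set their spacing, were higher in 3 of 11 members and lower in 0, with a median of 0.78 (1.09 relative to the median gene). The 3 were Omd, Fmod and Podn (1.13). Kera, keratocan, stood at 122 CPM in WT_LW and 69.0 in TLR9agonist_LW, and Dcn, decorin, the most abundant, at 7948 CPM in WT_LW and 6476 in TLR9agonist_LW, with a log2 ratio of −0.30. In upper cells 3 of 11 were higher and 0 lower.

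Elastic fibre genes split as well, with 2 of 17 higher and 3 lower, against 3.83% and 5.84% of all compared genes. Their median was −0.24 (0.07 relative to the median gene, the other sign). Ltbp2, a latent TGF-beta binding protein, stood at 30.6 CPM in WT_LW and 82.3 in TLR9agonist_LW and Mfap4, a microfibril-associated protein and the most abundant, at 1389.6 CPM in WT_LW and 3023 in TLR9agonist_LW. Emilin2 stood at 155 CPM in WT_LW and 38.6 in TLR9agonist_LW and Fbn1, fibrillin-1, at 1692 CPM in WT_LW and 713 in TLR9agonist_LW. Mfap4 and Fbn1 had log2 ratios of 1.10 and −1.06 in upper cells.

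Matricellular genes were higher in 1 of 15 and lower in 3, against 3.83% and 5.84% of all compared genes. Their median was 0.05 (0.36 relative to the median gene). Wisp2 (Ccn5) was the higher one at 42.9 CPM in WT_LW and 184 in TLR9agonist_LW, followed by Cyr61 (Ccn1, 0.72). Thbs4, Tnxb (347 CPM in WT_LW and 76.9 in TLR9agonist_LW) and Thbs3 (−1.39) were lower. Sparc, the most abundant, stood at 20026 CPM in WT_LW and 25194 in TLR9agonist_LW. Genes of collagen processing and crosslinking were higher in 0 of 18 and lower in 3, with a median of −0.55 (−0.24 relative to the median gene). Loxl2, a lysyl oxidase that crosslinks collagen, stood at 879.9 CPM in WT_LW and 282 in TLR9agonist_LW, the procollagen protease Adamts14 at 40.3 CPM in WT_LW and 14.4 in TLR9agonist_LW and the lysyl hydroxylase Plod2 had a log2 ratio of −1.22. Lox itself stood at 685 CPM in WT_LW and 996 in TLR9agonist_LW, Adamts2 had a log2 ratio of 0.05, and the collagen chaperone Serpinh1 stood at 2169 CPM in WT_LW and 2182 in TLR9agonist_LW.

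Myofibroblast genes showed no member past 2-fold in either direction, in 9 compared, with a median of −0.19 (0.12 relative to the median gene). Postn, periostin, stood at 6099.9 CPM in WT_LW and 4656 in TLR9agonist_LW and Tpm1 had a log2 ratio of −0.35. Tagln was highest in ratio (155 CPM in WT_LW and 271 in TLR9agonist_LW, log2 ratio 0.81), followed by Cnn2 (0.27). In upper cells 0 of 9 were higher and 3 lower. Of 17 proteases and inhibitors, 1 was higher and 1 lower, near the 3.83% and 5.84% of all compared genes. Their median was 0.12 (0.43 relative to the median gene). Mmp3, stromelysin-1, stood at 52.1 CPM in WT_LW and 252 in TLR9agonist_LW (log2 ratio 2.27) and in upper cells at 12.6 CPM in WT_LW and 75.2 in TLR9agonist_LW. Mmp9 was the lower one (17.7 CPM in WT_LW and 8.44 in TLR9agonist_LW), and Adamts1, Mmp14 and Timp2 had log2 ratios of 0.89, −0.80 and −0.59.

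Chemokine and cytokine genes were higher in more than 1 of every 2 members compared. Of 20 compared, 12 were higher and 0 lower, with a median of 1.38 (1.69 relative to the median gene). Il6 stood at 33.5 CPM in WT_LW and 285 in TLR9agonist_LW (log2 ratio 3.09, 2.89 to 3.29) and was found in 60 of 312 and 438 of 811 deep cells, but its level outside the gate was similar, 39.3 CPM in WT_LW and 272 in TLR9agonist_LW. Ccl2, the ligand of the monocyte receptor CCR2 and the most abundant member, stood at 1120.0 CPM in WT_LW and 3441 in TLR9agonist_LW in the gate and at 351 CPM in WT_LW and 1343 in TLR9agonist_LW outside. Lif, of whose 28 UMIs in WT_LW 5 cells held 57.1%, had a log2 ratio of 2.34, and at the other end Il1rl1, the IL-33 receptor, had −0.51 and Tnfrsf11b, osteoprotegerin, −0.29. In upper cells 11 of 21 members were higher and 0 lower. The list median was 1.56 in Clec3b-led, 1.10 in Angptl1-led, 1.24 in Cilp-led and 0.54 in Tnmd-led cells.

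NF-kB and IL-17 response genes were higher in 8 of 16 and lower in 0, with a median of 0.93 (1.25 relative to the median gene). Icam1, an adhesion molecule for leukocytes, stood at 18.5 CPM in WT_LW and 216 in TLR9agonist_LW (log2 ratio 3.55, 3.29 to 3.83). It was found in 64 of 312 and 573 of 811 deep cells. Despite this ratio Icam1 failed the naming rule, because its TLR9agonist_LW level in the gate was too close to that outside the fibroblast gate. How much of the Icam1 level in the gate is background was not tested. Nfkbia, the inhibitor of NF-kB and the most abundant member, stood at 988 CPM in WT_LW and 1762 in TLR9agonist_LW. Tnfaip6 and Nfkb2 were lowest, with log2 ratios of −0.30 and −0.10. In upper cells 5 of 16 were higher and 0 lower, with Icam1 at 43.1 CPM in WT_LW and 126 in TLR9agonist_LW.

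Complement and acute phase genes were higher in 6 of 9 and lower in 0, with a median of 1.12 (1.44 relative to the median gene). Beside Saa3, Serpina3n and C3, Serping1, the C1 inhibitor and the most abundant member, stood at 416 CPM in WT_LW and 795 in TLR9agonist_LW, and C1s1 had a log2 ratio of 0.29. In upper cells 1 of 6 members was higher and 0 lower. The median was 0.87 in cells at or under the median stress share and 1.73 with the leading-gene groups weighted equally.

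Type I interferon response genes leaned higher, while most interferon gamma and antigen presentation genes stayed within 2-fold. Of 18 type I interferon response genes compared, 9 were higher, 0 were lower and all 18 lay above 0, with a median of 0.92 (1.24 relative to the median gene). Ifit3 stood at 8.15 CPM in WT_LW and 35.5 in TLR9agonist_LW and Rtp4 at 9.07 CPM in WT_LW and 34.6 in TLR9agonist_LW, low levels in both libraries, and in WT_LW 5 cells held 60.4% of the Ifit3 UMIs. Bst2, tetherin, the most abundant, stood at 159.9 CPM in WT_LW and 333 in TLR9agonist_LW, and Ifi35 and Ddx58 had the lowest ratios (0.11 and 0.31). In upper cells 9 of 18 were higher and 0 lower. Genes of the interferon gamma response and antigen presentation were higher in 2 of 17 and lower in 0, with a median of 0.56 (0.88 relative to the median gene). Irf1 and Irgm1 (1.12) were the 2, while B2m, the most abundant, stood at 1003 CPM in WT_LW and 947 in TLR9agonist_LW and H2-D1 had a log2 ratio of −0.01.

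The stress list was higher as well. Of its 22 genes, 9 were higher and 0 lower, with a median of 0.73 (1.04 relative to the median gene), against 2 higher and 0 lower of 22 in upper cells. Hspa1b, a heat shock protein whose near-identical copy Hspa1a makes the split of reads between them uncertain, stood at 678 CPM in WT_LW and 3156 in TLR9agonist_LW in the gate and 876 CPM in WT_LW and 2801 in TLR9agonist_LW outside, Hspa8 at 1843 CPM in WT_LW and 2825 in TLR9agonist_LW, and Fosl1 and Fos had log2 ratios of 0.10 and −0.10. When only cells at or under the pooled median stress share of 2.11% were compared, 247 of WT_LW and 315 of TLR9agonist_LW, the stress list median was 0.06, the chemokine median 1.37, the NF-kB median 0.75 and the type I interferon median 0.88. The log2 ratios were then 4.87 for Saa3, 3.18 for Serpina3n, 2.04 for C3 and 1.73 for Irf1, all in the same direction as before.

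Toll-like receptor transcripts were scarce. Tlr9 had 0 UMIs in both libraries, in 312 and 811 deep cells, which allows a share of cells with a UMI of up to 0.962% and 0.370%. Of 18 listed receptors and adaptors, 8 reached 10 CPM, of which 1 was higher, Tlr2 (10.2 CPM in WT_LW and 24.3 in TLR9agonist_LW), and 1 lower, the adaptor Tirap (14.8 CPM in WT_LW and 6.75 in TLR9agonist_LW). Over all compared genes 3.83% were higher and 5.84% lower. Ly96 and Irak1 had log2 ratios of 0.62 and −0.56, and the median was −0.12, or 0.19 relative to the median gene. Tlr2 stood at 55.0 CPM in WT_LW and 27.9 in TLR9agonist_LW outside the gate.

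**Figure D5:**
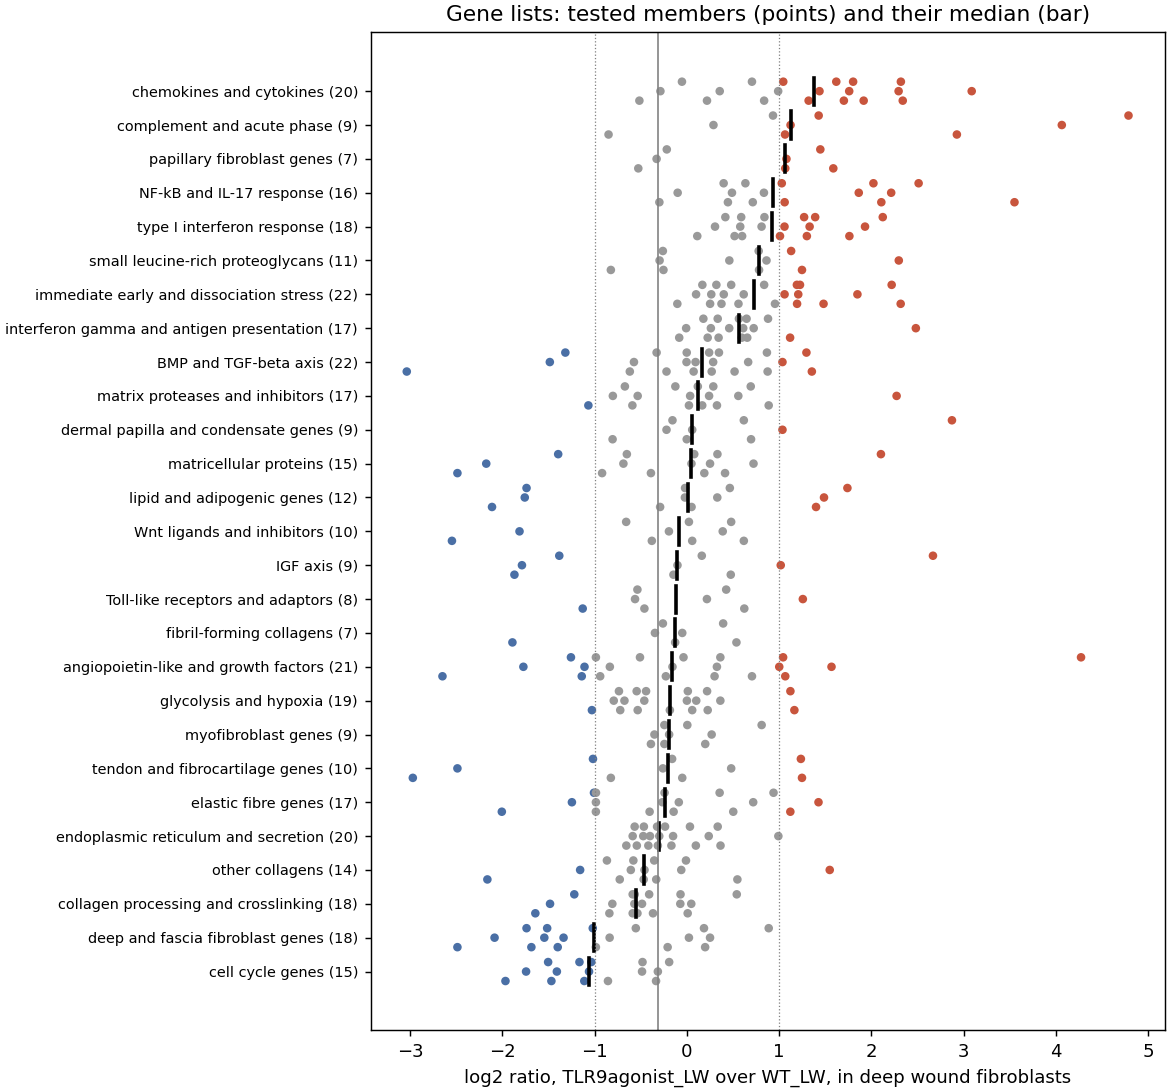
Compared members of each gene list (points; red at a log2 ratio of at least 1, blue at most −1, grey between) and their median (black bar), with the number compared in brackets; the grey line is the median gene at −0.32 and the x axis the log2 ratio of TLR9agonist_LW over WT_LW. The chemokine list has its median at 1.38 and the cell cycle list at −1.06.

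Growth factor genes were split. Of 9 genes of the insulin-like growth factor axis, 2 were higher and 3 lower, with a median of −0.10 (0.21 relative to the median gene). Igf2 stood at 181 CPM in WT_LW and 49.4 in TLR9agonist_LW and Igfbp6, which binds it, at 1164 CPM in WT_LW and 337 in TLR9agonist_LW, both lower, as was Igfbp5 (−1.38). In WT_LW 5 of the 75 cells with Igf2 held 56.9% of its UMIs, against 26.5% in TLR9agonist_LW. Igfbp2 and Igfbp3 (1.02) were higher, and Igfbp4, the most abundant, stood at 1028 CPM in WT_LW and 1150.3 in TLR9agonist_LW. Of 21 angiopoietin-like and other growth factors, 5 were higher and 5 lower, with a median of −0.16 (0.16 relative to the median gene). The gate gene Angptl1, whose UMIs chose the cells, is 1 of the 5 lower. Pdgfa stood at 76.7 CPM in WT_LW and 12.2 in TLR9agonist_LW, Angptl2 at 319.9 CPM in WT_LW and 93.7 in TLR9agonist_LW, and Ptn, pleiotrophin, the most abundant, at 1753 CPM in WT_LW and 796 in TLR9agonist_LW. Pdgfa stood higher outside the fibroblast gate, at 102 CPM in WT_LW and 78.5 in TLR9agonist_LW. Nrg1, an ERBB receptor ligand, had a log2 ratio of 1.57. Areg, amphiregulin, stood at 4.15 CPM in WT_LW and 80.2 in TLR9agonist_LW in the gate but at 129 CPM in WT_LW and 978 in TLR9agonist_LW outside. In TLR9agonist_LW it was found in 14.4% of thinned deep cells and 49.4% of T cells. The study reports Areg in γδT cells, so T cells cannot serve as its background. In TLR9agonist_LW 24 deep cells held at least 10 Areg UMIs, and 5 cells held 25.8% of them all. How much of the Areg level in the gate is background was not tested.

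Among Wnt ligands and inhibitors, 0 of 10 were higher and 2 lower, against 3.83% and 5.84% of all compared genes. The lower genes were Wnt2 and Wnt16 (19.5 CPM in WT_LW and 5.55 in TLR9agonist_LW), and the list median was −0.09 (0.23 relative to the median gene). Wnt5a (52.0 CPM in WT_LW and 79.7 in TLR9agonist_LW) and Dkk2 (0.48) had the highest ratios and Sfrp2 the highest level. Of 22 genes of the BMP and TGF-beta axis, 3 were higher and 3 lower, against 3.83% and 5.84% of all compared genes. Their median was 0.17 (0.48 relative to the median gene). The higher ones were Id3, a BMP target (242 CPM in WT_LW and 618 in TLR9agonist_LW), the inhibitory Smad7 (62.0 CPM in WT_LW and 152 in TLR9agonist_LW) and Bmp4. The lower ones were Chrdl1, a BMP antagonist (23.1 CPM in WT_LW and 2.81 in TLR9agonist_LW), Tgfbi (217 CPM in WT_LW and 77.6 in TLR9agonist_LW) and Nbl1 (−1.32). Fstl1, the most abundant, stood at 3857 CPM in WT_LW and 2592 in TLR9agonist_LW.

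Cell cycle genes were low in both libraries and lower in TLR9agonist_LW, with 0 of 15 higher and 9 lower and a median of −1.06 (−0.75 relative to the median gene). Cenpf stood at 24.5 CPM in WT_LW and 6.26 in TLR9agonist_LW and Ccnb2 at 15.5 CPM in WT_LW and 4.64 in TLR9agonist_LW, both genes of mitosis, and Tubb5, the most abundant, at 449.5 CPM in WT_LW and 361 in TLR9agonist_LW. Few cells carried the mitotic genes: 5 cells held 54.7% and 57.3% of the Cenpf UMIs and 51.5% of the Ccnb2 UMIs in each library. Hmgb2 had the ratio nearest 0, −0.19. In upper cells 0 of 17 were higher and 9 lower. The median was −0.52 in Clec3b-led, −1.19 in Angptl1-led and −0.89 in Cilp-led cells, but 1.09 in Tnmd-led cells, where WT_LW had 21 cells, and −0.55 with the 4 groups weighted equally.

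Lipid, glycolysis and secretion genes showed no common direction past 2-fold. Of 12 lipid and adipogenic genes, 3 were higher and 3 lower, with a median of 0.02 (0.33 relative to the median gene): Cebpa (5.54 CPM in WT_LW and 18.5 in TLR9agonist_LW), Cebpb (237 CPM in WT_LW and 663 in TLR9agonist_LW) and Apod (1.40) against Abca8a (25.8 CPM in WT_LW and 5.98 in TLR9agonist_LW), Ebf2 (15.7 CPM in WT_LW and 4.64 in TLR9agonist_LW) and Dlk1 (−1.74). Of 19 glycolysis and hypoxia genes, 2 were higher, Hk2 (1.17) and Ndrg1 (1.12), and 1 lower, Bnip3 (−1.03), with a median of −0.18 (0.13 relative to the median gene). Ldha had a log2 ratio of −0.79 and Gapdh stood at 674 CPM in WT_LW and 784 in TLR9agonist_LW. Of 20 genes of the endoplasmic reticulum and secretion, 0 were higher and 0 lower, with a median of −0.31 (0.01 relative to the median gene). Ddit3 and Atf4 had the highest ratios (0.99 and 0.36), Calr and P4hb the lowest (−0.66 and −0.59), and Hsp90b1 stood at 1150.1 CPM in WT_LW and 1024 in TLR9agonist_LW.

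Markers of other cells were compared in the same way. All 7 keratinocyte markers above 10 CPM were higher, with a median of 2.01 (2.32 relative to the median gene), at levels below those outside the gate. Of 2 T cell markers 1 was higher and 0 lower, of 6 macrophage and dendritic markers 0 and 0, and of 2 pericyte markers, of which the gate used Rgs5, 0 higher and 2 lower. The summed markers in WT_LW and TLR9agonist_LW deep cells were 36.6 and 42.9 CPM for endothelial cells, 56.1 and 30.5 CPM for pericytes and smooth muscle and 23.2 and 27.8 CPM for mast cells, each below the sum outside the gate of the same library. Neutrophil markers summed to 0.923 and 0.773 CPM, adipocyte markers to 0 and 0.0703 CPM and skeletal muscle markers to 2.46 and 2.25 CPM, with no member compared. Cartilage markers summed to 58.0 and 43.4 CPM against 28.0 and 49.95 CPM outside the gate, most of it Sox9 (44.3 CPM in WT_LW and 42.0 in TLR9agonist_LW), and Acan, aggrecan, stood at 13.5 CPM in WT_LW and 1.27 in TLR9agonist_LW. Xist had 0 UMIs in both, and the 3 compared Y-linked genes had a median of −0.20 (0.12 relative to the median gene). The part of keratinocyte transcripts, stress genes and the change of leading gene in the ratios given above was not tested beyond the values shown.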

How the data were processed

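Single-cell RNA of wound skin was measured with 10x Genomics 3' chemistry in 1 library per group. For each called cell the authors deposited its raw count of UMIs per gene, without normalization. The file headers name Cell Ranger 4.0.0, and the submitters' processing notes name fastp, Cell Ranger, Seurat and mm9. No coordinates are given, since the reference at hand was of another build. The deposited libraries held 12800 cells with 99374045 UMIs and 13751 cells with 132339022 UMIs, of which 11443 and 13206 cells were kept. 

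UMIs were summed over gated cells and given as CPM of their summed UMIs. Shares carry exact Clopper-Pearson 95% intervals, CPM exact Poisson and ratios exact conditional intervals, and a count of 0 was read against a floor of 3 counts. Genes with a mean of at least 10 CPM were compared, and a log2 ratio of at least 1 or at most −1 counted. Cells outside the fibroblast gate, and among them T cells (at least 2 UMIs of Cd3d, Cd3e and Cd3g, at least 1 of Ptprc, under 20 of Col1a1 and Col1a2), served as background. For detection, each cell was thinned to 5000 UMIs. Doublets were scored by the Scrublet method, written for these data, and kept. Their removal, of 17 and 92 deep cells, is an alternative. 

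The text names the gate genes and Sfrp2. It also names the 10 highest and 10 lowest log2 ratios among genes with a mean of at least 20 CPM and at least 10 UMIs in each library. These genes also had at least 2 times the level outside the fibroblast gate in the library where they were higher. Genes named mt-, Rpl, Rps, Gm or Rik were left out. From each list the text names the 2 highest, the 2 lowest and the most abundant compared members. A few list members and 1 marker list are not reported here. Deep against upper cells, it names the 10 highest and lowest by the smaller ratio of the libraries, without rule genes. The genes contrasted between Tnmd-led and Clec3b-led cells, and Tlr9, Pi16, the other lower deep and fascia genes, Podn, Thbs3, Plod2, Igfbp5, Nbl1, Apod, Dlk1, Acan, S100a8 and Il17a, were chosen after their values were seen. The members and the 39 gene lists were chosen with earlier results of these data known.

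Of 15 alternative settings, 10 were fixed at the start and 5 added after the data were seen. The code was tested on simulated counts. Sums and tables were made with pandas 2.3.3 and numpy 2.4.6 in Python 3.11.15, intervals with scipy 1.17.1, neighbours for doublets with scikit-learn 1.9.0 and plots with matplotlib 3.10.9.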

Additional observations from a re-analysis of the deposited data

How the results depend on the processing

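No paired analysis was possible because each group had 1 library. The log2 ratio of the deep share among kept cells, 1.17, turned to −0.86 when fibroblasts with markers of other types were left out. All kept cells stayed in that denominator, so a lower share is built in. The ratio among gated fibroblasts, −0.31, became −0.62. The counts of higher and lower genes were then 560 and 1308 in place of 296 and 451, on 52 and 33 cells. With every cell thinned to 3000 UMIs before the gate these share ratios were 0.81 and −0.51. With fewer than 3 Ptprc UMIs allowed the share among kept cells was 0.90, and without Tnmd in the deep sum the ratios were 0.98 and −0.50. Relative to the median gene 480 genes were higher and 163 lower. A limit of 50 CPM gave 133 and 140, since fewer genes (2685) were compared, and no limit, with 0.5 UMI added, gave 1709 and 2824 of 17702 genes. With the leading-gene groups weighted equally 291 genes were lower. The papillary list median of 1.07 turned to −0.059 with markers of other types left out, −0.21 with thinning to 3000 UMIs and −0.20 with fewer than 3 Ptprc UMIs allowed. Except where a number of cells or genes is given, the cause was not tested. Of the remaining alternative values, 257 of genes and 353 of list medians differed little (for medians by under 0.25) and 115 and 108 moved further without a change of a called direction. Some values that were not called changed sign. Sfrp2 ran from −0.71 to 0.82 and the T cell marker median from −0.84 to 1.01 over the settings. The ratio of Tnmd fell as low as 0.05. The settings on Ptprc, Tnmd, shared barcodes, stress share and leading-gene groups were chosen after seeing the data. Leaving out a library was not possible. Depth limits genes below 10 CPM, where 1 UMI per cell in few cells sets the ratio.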
